A study of Mus musculus with 24 samples.

Results

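Mediator is the large coactivator that carries signals from enhancer-bound transcription factors to RNA polymerase II, and 33 genes for its subunits were followed among the 55487 genes listed for 24 mouse QuantSeq 3′ mRNA libraries. The members were every protein-coding gene whose symbol is Med followed by digits and at most 1 letter, together with Cdk8, Cdk19 and Ccnc. The libraries came from Cas9-LP, lymphoid progenitor (LP) lines derived from the fetal liver of mice that are Ebf1-deficient and carry a Cas9 knock-in at Rosa26, so all 8 groups share both. Ebf1 tags were still present, at a mean of 334 CPM (counts of reads on a gene, scaled to the same library total) in sgCont LPs of experiment 1, so the tag does not check that deficiency. Each line was transduced with a retrovirus that encodes an sgRNA and the surface marker hNGFR, and hNGFR+CD45+ cells were sorted 5 days later. Experiment 1 held 4 groups of 3 libraries: sgCont (a control targeting luciferase) or sgCbfb, in LPs on OP9 stroma or in Phase1 cells on OP9-DLL4, stroma that presents a Notch ligand. The study describes these Phase1 cells as LPs given 2 days of Notch stimulation. Experiment 2 held 4 groups of 3 LP libraries on OP9, with sgCont, sgCbfb, sgCTCF or sgMed12. The sgCbfb, sgCTCF and sgMed12 cells were transduced populations in which 3 guides per gene were pooled, not clones. The study's methods call the replicates of a group biologically independent, and how the cultures were kept apart is not described further there.

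The complex is usually described as a core of head, middle and tail modules held together by the scaffold subunit MED14. A separable kinase module binds this core through MED13 or its paralog MED13L, and it also holds MED12 or MED12L, cyclin C and the kinase CDK8 or CDK19. While docked, the kinase module blocks the site where the core meets RNA polymerase II, and its kinase phosphorylates transcription factors that include the intracellular part of NOTCH1. CBFβ, the target of sgCbfb, is the partner that RUNX factors need to bind DNA firmly, and CTCF is the insulator protein that sets chromatin loops. The 33 genes comprised 11 of the head (Med6, Med8, Med11, Med17, Med18, Med20, Med22, Med27, Med28, Med29 and Med30), 9 of the middle (Med1, Med4, Med7, Med9, Med10, Med19, Med21, Med26 and Med31), the scaffold gene Med14, 5 of the tail (Med15, Med16, Med23, Med24 and Med25) and 7 of the kinase module.

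Total reads were 1363263 to 1743319 a library in experiment 1 and 3354483 to 4326782 in experiment 2, so a count of 0 still allows up to 1.72 to 2.20 CPM and 0.693 to 0.894 CPM in the 2 experiments (counting error only). All 33 genes entered the test in both experiments, and 32 of 33 had reads in every library. A gene passed the test when its adjusted p in limma, over all genes tested, was under 0.05. Mitochondrial transcripts took 7.02% to 7.87% of reads in experiment 1, and up to 13.7% in experiment 2, where the sgMed12 libraries were the highest at 13.7%, 8.44% and 11.2%. The second sgMed12 library stood apart from the others. Counts of members that passed with sgMed12 against sgCont or sgCTCF are given with and without it. Other sgMed12 values include it unless stated. In bulk samples, a change in the makeup of the population and a change of RNA per cell cannot be told apart.

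The targeted genes were read first. Cbfb was 75.8 to 92.7 CPM in sgCont LPs of experiment 1 and 35.7 to 45.8 CPM with sgCbfb. In Phase1 cells the Cbfb ranges overlapped, at 44.7 to 81.3 and 44.1 to 63.5 CPM. In experiment 2 Cbfb was 109 to 124 CPM with sgCont and 41.6 to 55.4 CPM with sgCbfb. Cbfb thus fell in both sets of sgCbfb LPs (log2 fold change -1.09 ± 0.22 SE and -1.23 ± 0.16, limma adjusted p 0.00548 and 4.34e-06), and the Phase1 difference did not pass. Ctcf was 356 to 413 CPM with sgCont and 272 to 330 CPM with sgCTCF, a fall of 0.36 on the log2 scale (limma adjusted p 0.0210). These 3′ tags need not span the edited sites, so they do not measure the deletion itself. As its own check, the study reports immunoblots of CBFβ, CTCF and MED12 protein in transduced LPs, taken at an earlier day than these libraries.

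Med12, the target of sgMed12 and the subunit that activates the kinase through cyclin C, was the least abundant member as a mean over all 24 libraries and in sgCont LPs of experiment 2. In sgCont LPs of experiment 1 its mean of 5.65 CPM lay above those of Med29 (5.62 CPM) and Med18 (4.10 CPM), with overlapping ranges. In experiment 2 Med12 was at 6.59, 4.43 and 4.38 CPM with sgCont, from 25, 15 and 18 reads. In the sgMed12 libraries Med12 was at 9.61, 3.20 and 8.23 CPM, from 34, 11 and 29 reads. The 2 ranges overlap, and the lowest sgMed12 value is in the second library. The log2 difference was 0.30 (95% interval -0.43 to 1.03), so the tag gives no check of the sgMed12 label in either direction. All of the last 500 exon bases of Med12 on chromosome X also belong to Gm21986, a transcript on the same strand that was itself listed at a mean of 0.239 and 0.373 CPM in the 2 experiments, so the division of reads between them is uncertain.

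In sgCont LPs the 33 genes spanned 5.14 to 405 CPM in experiment 2, with a median of 32.5 CPM. Med13l, the kinase-module subunit that docks the module on the core, stood highest in both experiments at 405 ± 28.4 CPM (SD, n = 3) and 498 ± 60.5 CPM. Its lowest library in experiment 2, 373 CPM, lay above the highest library of the next gene, Med1 (171 CPM), the large middle subunit that nuclear receptors contact. Cdk19 (130 ± 16.4 CPM) and Med28 of the head (104 ± 6.79 CPM) followed, and the ranges of these neighbours overlapped, at 111 to 143 and 98.6 to 112 CPM. Below them, Med13, Med25, Med19, Med8 and Med15 lay at 61.9 to 88.1 CPM with overlapping ranges between neighbours. Tag counting reads each transcript once, so these levels were not divided by transcript length.

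**Figure D1:**
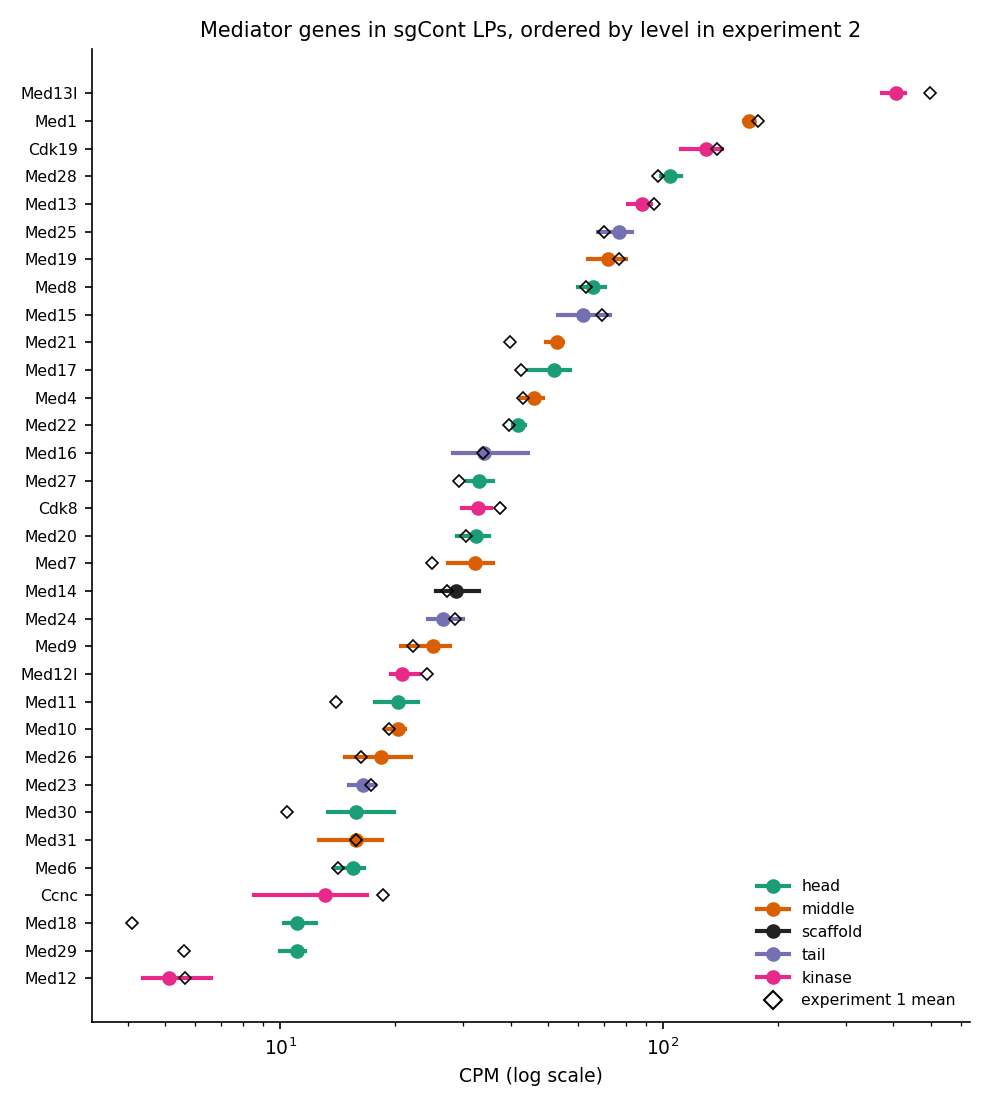
Level of each of the 33 Mediator genes in sgCont LPs, in CPM on a log axis. Filled points are the experiment 2 means, bars join the lowest and highest of its 3 libraries, colours mark modules and open diamonds are experiment 1 means. Med13l is alone at the top, at 405 CPM in experiment 2, and Med12 is lowest at 5.14 CPM. The division of reads between Med12 and Gm21986 is uncertain.

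Each module had a spread of levels of its own. Over all 24 libraries the head ran from Med28 (94.0 CPM) to Med18 (7.09 CPM), and the middle from Med1 (164 CPM) to Med31 (14 CPM). The tail ran from Med15 (71.1 CPM), a frequent contact of activators, to Med23 (18.3 CPM), and the scaffold gene Med14 was at 29.6 CPM. The kinase module had the widest span, from Med13l (479 CPM) to Med12 (5.66 CPM). Within its paralog pairs, the L form was higher in both cases and Cdk19 was higher than Cdk8 in all 24 libraries. The level of Med12, and so its place below Med12l, is subject to the uncertain division of reads with Gm21986. In sgCont LPs of experiment 2, Med13l was 4.6 ± 0.00377 times Med13 (SD, n = 3) and Cdk19 was 4.0 ± 0.832 times Cdk8. The order of the 33 levels was alike in the sgCont LPs of the 2 experiments, with a Spearman rho of 0.979 across genes, which are not independent replicates.

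Med13l, on chromosome 5 (mm10, chr5:118560679-118765438, plus strand), was higher in sgCbfb LPs in both experiments. In experiment 1 Med13l was at 543, 521 and 429 CPM in sgCont LPs and at 840, 781 and 758 CPM in sgCbfb LPs. In experiment 2 Med13l was at 428, 414 and 373 CPM with sgCont and at 655, 632 and 566 CPM with sgCbfb. Every sgCbfb library lay above every sgCont library of its experiment. The rise was 1.59-fold in experiment 1 (log2 0.68, 95% interval 0.42 to 0.93, limma adjusted p 0.00155) and 1.53-fold in experiment 2 (log2 0.61, 95% interval 0.40 to 0.81, limma adjusted p 8.07e-05). The 2 experiments were fitted separately, and their intervals overlap over most of their width. In experiment 1 Med13l was the only 1 of 33 members to pass in LPs, against 2.85% of all genes tested.

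Med13l was lower in Phase1 cells than in LPs. In Phase1 sgCont cells Med13l was at 336, 283 and 334 CPM, below each of the 3 LP sgCont libraries. In Phase1 sgCbfb cells Med13l was at 486, 403 and 391 CPM, again below all LP sgCbfb libraries. The log2 difference between Phase1 and LP was -0.64 ± 0.12 SE with sgCont and -0.90 ± 0.12 with sgCbfb (limma adjusted p 0.00133 and 7.86e-05). It was the only 1 of 33 members to pass in each case, against 6.48% and 2.24% of all genes. The level in Phase1 sgCbfb cells was thus close to that of sgCont LPs, 427 ± 51.9 and 498 ± 60.5 CPM, with overlapping ranges. Med31 of the middle had a larger difference between Phase1 and LP sgCont cells that did not pass (log2 -2.00 ± 0.62 SE, limma adjusted p 0.0597), and it was at 0 in 1 Phase1 library.

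**Figure D2:**
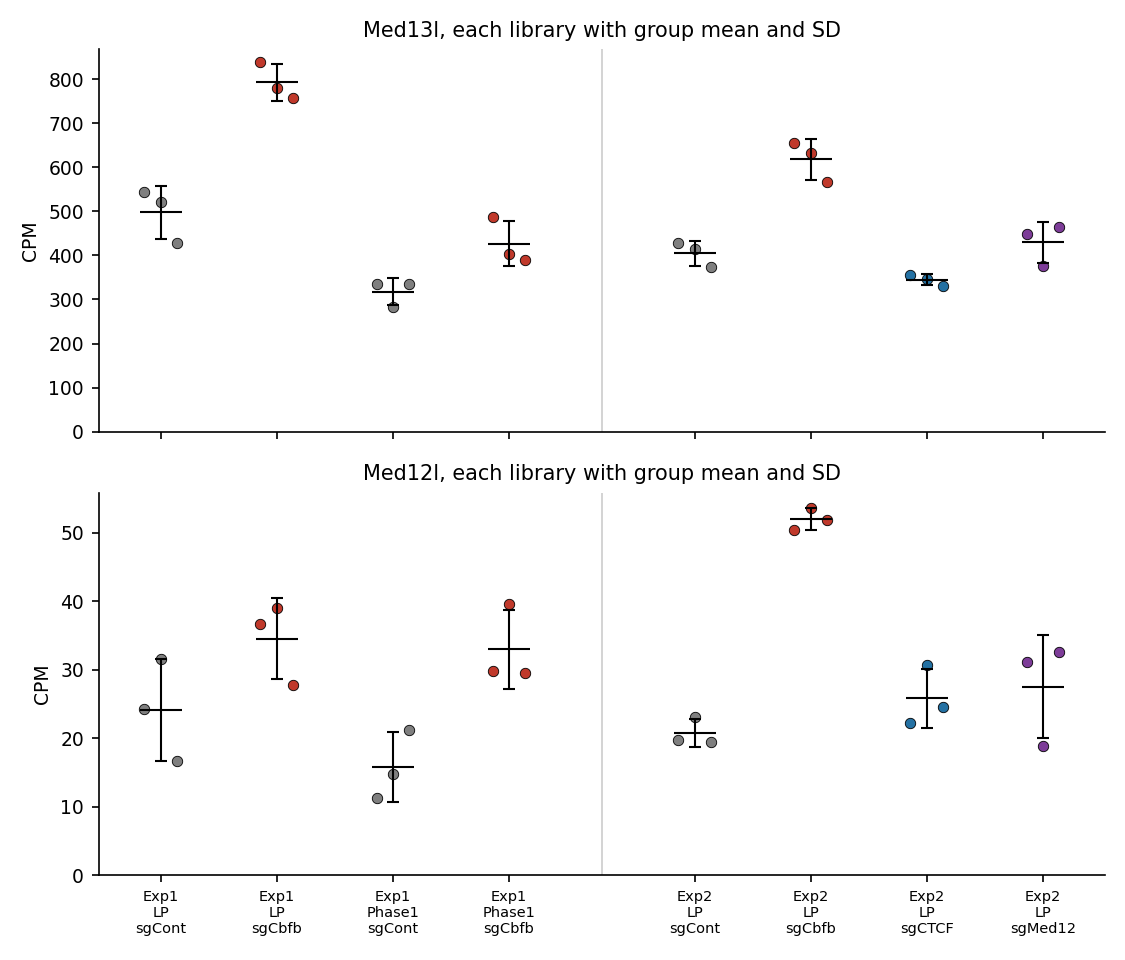
Med13l (upper panel) and Med12l (lower panel) in CPM in every library of the 8 groups. Points are libraries, horizontal bars are means and whiskers are SD (n = 3). In both LP experiments the sgCbfb libraries of Med13l lie above the sgCont libraries, and Med12l with sgCbfb in experiment 2 lies at 50.4 to 53.6 CPM against 19.5 to 23.0 CPM.

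Med12l, on chromosome 3 (mm10, chr3:59005825-59318682, plus strand), showed its largest difference in experiment 2. Med12l was at 19.8, 23.0 and 19.5 CPM with sgCont and at 50.4, 53.6 and 51.9 CPM with sgCbfb. Each sgCbfb library was more than any sgCont library, a 2.50-fold rise (log2 1.29, 95% interval 0.90 to 1.68, limma adjusted p 1.75e-05). Med12l and Med13l were the 2 of 33 members that passed in that comparison, against 12.5% of all genes. In experiment 1 LPs, Med12l was at 24.2, 31.6 and 16.7 CPM with sgCont and at 36.7, 39.0 and 27.8 CPM with sgCbfb. These ranges overlap, and the difference did not pass (log2 0.53, 95% interval -0.11 to 1.16, limma adjusted p 0.570).

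The start-site windows of the genes that moved are shown because both genes moved with a guide to the partner of RUNX factors. Each is 300 bases from RefSeq (GRCm38.p6, the build of mm10), plus strand, 5′ to 3′, with the 50 bases from the start site on in capitals.
Med13l, chr5:118560469-118560768: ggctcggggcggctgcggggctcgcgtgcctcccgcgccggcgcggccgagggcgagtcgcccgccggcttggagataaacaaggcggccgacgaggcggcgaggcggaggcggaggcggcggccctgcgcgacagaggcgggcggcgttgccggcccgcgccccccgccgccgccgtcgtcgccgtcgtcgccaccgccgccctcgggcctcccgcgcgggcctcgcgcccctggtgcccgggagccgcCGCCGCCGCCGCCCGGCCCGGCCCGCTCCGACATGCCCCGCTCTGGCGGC
Med12l, chr3:59006728-59007027: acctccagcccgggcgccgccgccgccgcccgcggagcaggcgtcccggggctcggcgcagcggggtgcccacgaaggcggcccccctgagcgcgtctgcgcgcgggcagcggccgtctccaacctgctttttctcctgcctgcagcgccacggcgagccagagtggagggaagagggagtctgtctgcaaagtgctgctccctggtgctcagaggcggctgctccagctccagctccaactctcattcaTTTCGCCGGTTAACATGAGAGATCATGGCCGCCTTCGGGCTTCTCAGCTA
Both windows are rich in G and C, at 84.7% and 69.0%, against a median of 52.7% over all 32851 windows of this length. The CG dinucleotide occurs 61 and 30 times, against a median of 7.0. Neither window holds the RUNX letters TGTGGT or TGCGGT on either strand, which 22.4% of all windows do, nor the RBPJ letters TGGGAA, which 25.6% do. Windows were found for 28 of the 33 members, and 6 genes had the RUNX letters: Ccnc, Med15, Med22, Med27, Med28 and Med31. A match here is a run of letters, not a bound site, and no match says only that these letters are not in this window.

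In Phase1 cells, 2 of 33 members passed between sgCbfb and sgCont, against 5.97% of all genes, and they were Med12l and Med13l. Med12l was at 11.3, 14.8 and 21.3 CPM with sgCont and at 29.8, 39.6 and 29.5 CPM with sgCbfb, with no overlap (log2 1.05, 95% interval 0.41 to 1.68, limma adjusted p 0.0445). Med13l rose by log2 0.42 (95% interval 0.17 to 0.67, limma adjusted p 0.0395). Both calls lie near the threshold, as Med12l passed in 6 and Med13l in 9 of 21 alternative settings, and neither passed in edgeR. The test of whether the sgCbfb difference itself differed between Phase1 and LP called 0 of 33 members in limma, against 1.27% of all genes. No member reached an unadjusted p under 0.05 in that test, against 10.3% of all genes, and edgeR also called 0. The interval of the difference for Med12l was -0.38 to 1.42 on the log2 scale.

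No gene of the head, middle, scaffold or tail passed between sgCbfb and sgCont, in LPs of either experiment or in Phase1 cells. The other 5 kinase genes did not pass between sgCbfb and sgCont in any of these comparisons. Cdk19, 1 of the 2 kinases, was at 143, 135 and 111 CPM with sgCont in experiment 2 and at 139, 157 and 151 CPM with sgCbfb. Cdk8 was at 29.8, 33.1 and 35.6 CPM and at 25.0, 34.6 and 31.5 CPM in the same libraries. Both pairs of ranges overlap. Med13 was at 93.1, 90.1 and 81.1 CPM with sgCont and at 109, 107 and 104 CPM with sgCbfb, without overlap, yet its log2 difference of 0.27 (95% interval 0.04 to 0.50) did not pass (limma adjusted p 0.126). Med13 shares 800 exon bases with Brip1os, an antisense gene on the opposite strand with a mean of 109 CPM in experiment 2. Of these bases, 0 lie within the last 500 exon bases of Med13. The counting tool and its strand setting are not given in the sources used here. Ccnc, which encodes cyclin C, was at 14, 8.56 and 16.8 CPM with sgCont and at 11.9, 13.4 and 11.3 CPM with sgCbfb.

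In experiment 1 these genes lay at similar levels. Med13 was at 110, 91.0 and 84.1 CPM in sgCont LPs and at 102, 99.8 and 110 CPM in sgCbfb LPs, which overlap. Cdk19 was at 123, 136 and 156 CPM and at 178, 143 and 143 CPM in those libraries, which also overlap. In Phase1 cells Cdk19 was at 133, 124 and 123 CPM with sgCont and at 161, 145 and 170 CPM with sgCbfb, without overlap, and did not pass (log2 0.32, 95% interval 0.02 to 0.62, limma adjusted p 0.238). Med12 stayed at 1.30 to 11.3 CPM over the 12 libraries of experiment 1.

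Ccnc was more variable in the shallower experiment 1. Its LP values were 25.4, 18.0 and 12.2 CPM with sgCont and 7.76, 7.46 and 10.7 CPM with sgCbfb. Those groups do not overlap, but the difference did not pass (log2 -0.98, 95% interval -2.07 to 0.11). Its Phase1 values were 12.7, 16.1 and 2.20 CPM with sgCont and 7.13, 10.7 and 13 CPM with sgCbfb. Here the sgCont libraries span the sgCbfb libraries. Cdk8 likewise did not overlap in those LPs, at 32.5, 48.3 and 31.5 CPM with sgCont and 30.3, 28.1 and 19.3 CPM with sgCbfb, and did not pass (log2 -0.51, limma adjusted p 0.556). In all, 7 of 33 members did not overlap between sgCbfb and sgCont in experiment 1 LPs and 8 of 33 in experiment 2, against 17.5% and 30.5% of all genes, and 1 and 2 of them passed. Ccnc also shares 276 exon bases, all within its last 500, with Tstd3 on the opposite strand.

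Summed over genes, the core overlapped between sgCbfb and sgCont while the kinase module did not. The 26 core genes summed to 1032 ± 41.6 CPM in sgCont LPs of experiment 1 and 978 ± 11.5 CPM with sgCbfb (SD, n = 3). In experiment 2 the core sums were 1097 ± 27.7, 1049 ± 34.9, 1125 ± 19.8 and 1081 ± 85.8 CPM with sgCont, sgCbfb, sgCTCF and sgMed12. The 7 kinase genes summed to 817 ± 67.3 CPM in sgCont LPs and 1129 ± 69.5 CPM in sgCbfb LPs of experiment 1. In experiment 2 the kinase sum was 695 ± 47.5 CPM with sgCont and 974 ± 46.1 CPM with sgCbfb. Med13l made up 60.8% and 58.3% of the kinase sum in the sgCont LPs of experiments 1 and 2, so that the sum mostly follows that gene. Without Med13l, the 6 other kinase genes summed to 319 ± 10.1 and 336 ± 27.2 CPM in the LPs of experiment 1, which overlap, and to 290 ± 19.1 and 357 ± 15.5 CPM in those of experiment 2, which do not.

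**Figure D3:**
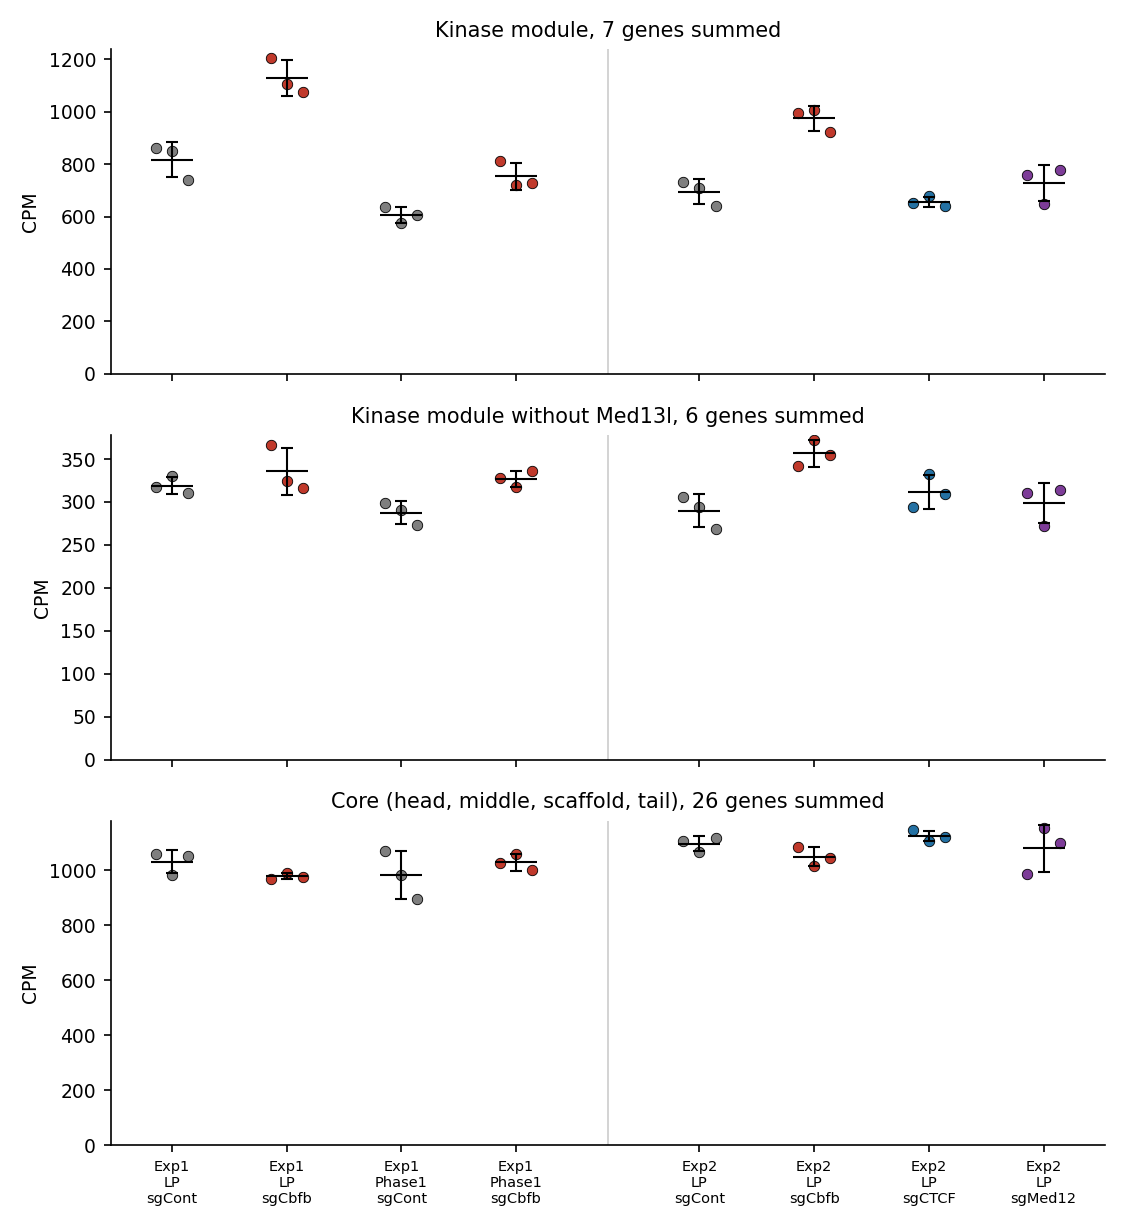
Summed CPM of the kinase module (7 genes), of its 6 genes other than Med13l and of the 26 core genes, in every library, with mean and SD (n = 3 a group). The kinase sum is highest in sgCbfb LPs of both experiments (1129 and 974 CPM), while the core sum stays between 978 and 1125 CPM as group means.

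The share of all Mediator reads that came from the kinase module rose from 44.2% ± 2.64 to 53.5% ± 1.68 with sgCbfb in experiment 1 LPs. In experiment 2 this share was 38.7% ± 1.98 with sgCont and 48.1% ± 1.45 with sgCbfb. It was lowest in Phase1 sgCont cells among the groups of experiment 1, at 38.2% ± 1.94. Within the pair of docking subunits, Med13l was 5.26 ± 0.414 times Med13 in sgCont LPs of experiment 1 and 7.64 ± 0.677 times in sgCbfb LPs. The ratio was 3.29 ± 0.394 in Phase1 sgCont cells. These shares and ratios were formed after the gene values had been seen and carry no test.

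In sgCTCF LPs, 1 of 33 members passed against sgCont, where 10.3% of all genes did. It was Med27, a head subunit, at 32.7, 30.7 and 36.0 CPM with sgCont and 57.2, 47.9 and 47.4 CPM with sgCTCF. The groups do not overlap, and the rise was 1.53-fold (log2 0.60, 95% interval 0.23 to 0.97, limma adjusted p 0.0333). Med27 passed in 14 of 21 alternative settings and lost the call when any 1 library of either group was left out, with adjusted p up to 0.167. Among the kinase genes, Med13l was at 356, 346 and 331 CPM with sgCTCF, below the 3 sgCont libraries, and its difference did not pass (log2 -0.23, limma adjusted p 0.162). Med13 was at 99.6, 121 and 113 CPM, above the 3 sgCont libraries, and did not pass (log2 0.33, limma adjusted p 0.0620). Med12l (22.3, 30.6 and 24.5 CPM), Cdk8 (33.8, 44.0 and 39.3 CPM), Cdk19 (123, 118 and 115 CPM) and Ccnc (13.1, 12.8 and 12.2 CPM) overlapped sgCont.

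In sgMed12 LPs, limma called 0 of 33 members against sgCont, where 7.22% of all genes passed, 2.53% higher and 4.7% lower. At an unadjusted p under 0.05 there were 4 of 33 members, against 23.4% of all genes, with Med16 and Cdk8 higher and Med21 and Med9 lower, and edgeR also called 0. Cdk8 was at 45.8, 38.1 and 42.0 CPM with sgMed12, above the 3 sgCont libraries (log2 0.34, 95% interval 0.01 to 0.68, limma adjusted p 0.194). Cdk19 was at 122, 98.2 and 116 CPM and Med13 at 95.5, 102 and 106 CPM. Ccnc was at 6.22, 11.9 and 8.23 CPM, overlapping sgCont (log2 -0.52, 95% interval -1.07 to 0.02). Med13l was at 448, 377 and 464 CPM and Med12l at 31.1, 18.9 and 32.6 CPM. For both of these genes the second library lies within or below the sgCont range while the other two lie above it.

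Without that second sgMed12 library, 5 of 33 members passed, against 8.13% of all genes higher and 13.5% lower. Med12l and Med16, a tail subunit, were higher (log2 0.60 and 0.64, limma adjusted p 0.0131 and 0.0120). Med28 of the head and Med21 and Med9 of the middle were lower (log2 -0.56, -0.50 and -0.65, limma adjusted p 0.00191, 0.0134 and 0.0325). Med28 in the 3 sgMed12 libraries was at 61.0, 122 and 80.9 CPM, so the second library is on the other side of the sgCont values (102, 112 and 98.6 CPM). With either of the other sgMed12 libraries left out, no member passed. The mitochondrial share of the 3 libraries, 13.7%, 8.44% and 11.2%, moves with this split, and its part in the result was not tested.

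**Figure D4:**
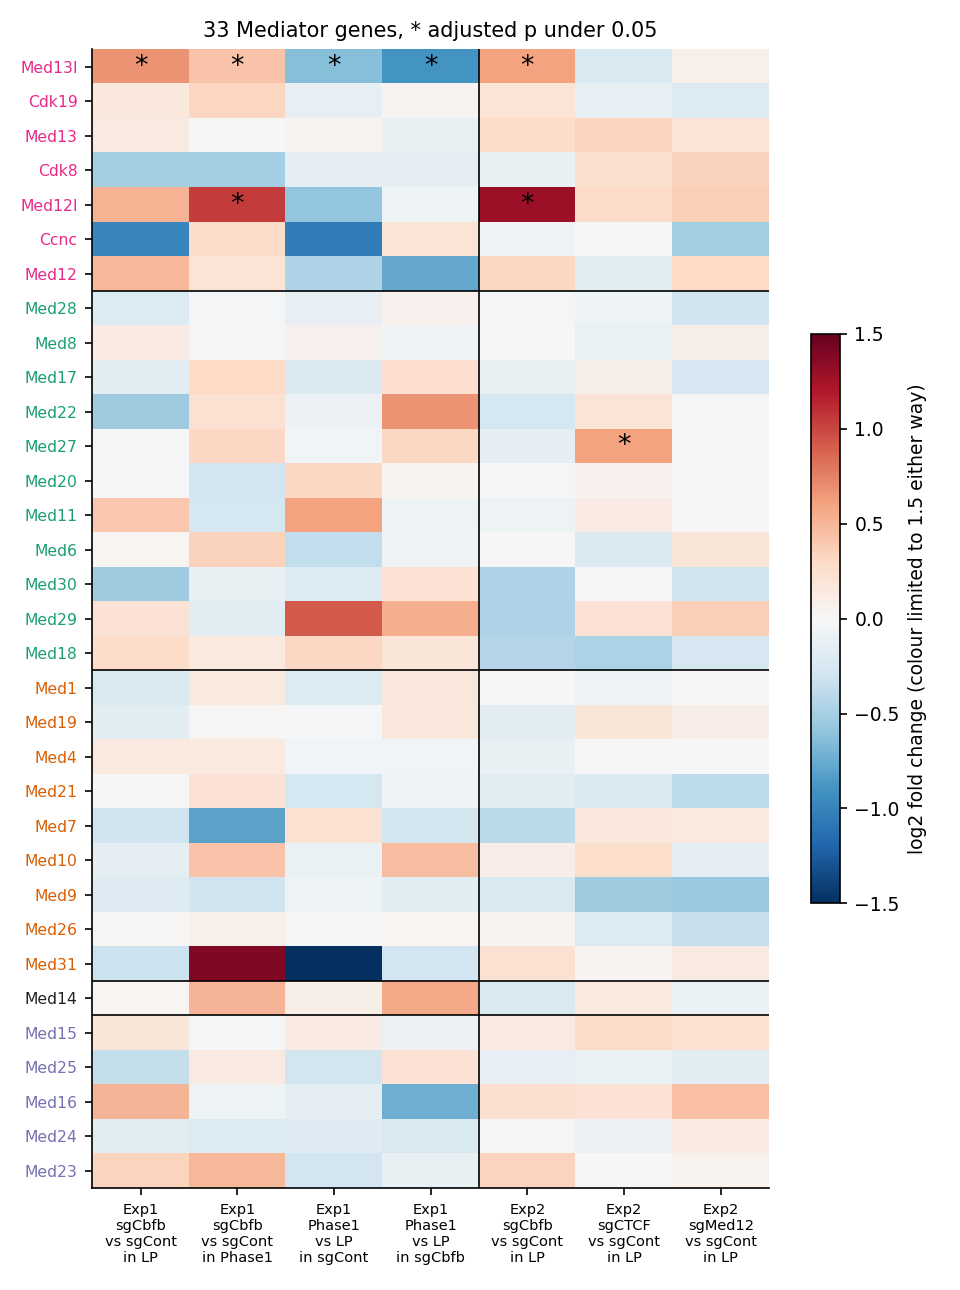
Log2 fold changes of the 33 members (rows, grouped by module from kinase at the top to tail at the bottom) in the 7 comparisons with a matched control or stage. Red is higher and blue lower in the first-named group, and a star marks an adjusted p under 0.05 in limma. Stars lie in the Med13l and Med12l rows, with 1 more for Med27 with sgCTCF.

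The sgRNAs were also set against each other. These comparisons use the same 12 libraries as those above. Between sgCTCF and sgCbfb, 6 of 33 members passed, against 22.3% of all genes. Med13l (log2 -0.84), Med12l (-0.99) and Cdk19 (-0.33) were lower with sgCTCF, with limma adjusted p of 5.16e-07, 0.000290 and 0.0444. Med27 (log2 0.74), Med7 of the middle (0.58) and Med22 of the head (0.48) were higher, with limma adjusted p of 0.00369, 0.0153 and 0.0416. Med7 was at 22.4, 24.1 and 25.7 CPM with sgCbfb and at 41.3, 39.8 and 29.1 CPM with sgCTCF, and Med22 at 36.7, 30.6 and 36.5 CPM and at 56.1, 40.7 and 49.7 CPM. Neither pair of ranges overlaps.

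Between sgMed12 and sgCbfb, 5 of 33 members passed, against 16.8% of all genes. Med13l (log2 -0.53), Med12l (-0.93) and Cdk19 (-0.41) were lower with sgMed12, with limma adjusted p of 0.000457, 0.000904 and 0.0151. Med29 of the head (log2 0.81) and Med7 (0.55) were higher, with limma adjusted p of 0.0238 and 0.0266. Med29 was low, at 7.75, 5.90 and 10.1 CPM with sgCbfb and 16.1, 11.9 and 15.3 CPM with sgMed12. Cdk8 lay just outside the threshold (log2 0.46, limma adjusted p 0.0502). Between sgMed12 and sgCTCF, 2 of 33 passed, against 20% of all genes: Med13l was higher (log2 0.31, limma adjusted p 0.0297) and Med27 lower (log2 -0.63, limma adjusted p 0.0161) with sgMed12. Without the second sgMed12 library, 7 members passed there, and without the first or the third sgMed12 library, or the first sgCTCF library, none did.

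By the study's 3 thresholds (adjusted p under 0.05, a log2 ratio of means beyond 1 in size, and 10 CPM exceeded by the mean of at least 1 group), Med12l was the single member called. It was called with sgCbfb against sgCont in Phase1 cells and in experiment 2, where 3.52% and 4.33% of all genes were, and between sgCTCF and sgCbfb, where 6.87% were. No member was called with sgCbfb in LPs of experiment 1 (1.69% of all genes), between Phase1 and LP cells with sgCont (3.39%) or sgCbfb (1.19%), or in the test of the difference between stages (1.03%). None was called with sgCTCF (2.43%) or sgMed12 (1.03%) against sgCont, or with sgMed12 against sgCTCF (4.01%) or sgCbfb (4.48%). Small differences were common among the members and among all genes. Against sgCont in experiment 2, the median size of the log2 difference over the members was 0.15 with sgCbfb, 0.17 with sgCTCF and 0.19 with sgMed12. Over all genes tested it was 0.24, 0.23 and 0.25.

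With sgCbfb the summed markers of several cell types moved as well. Of the 7 myeloid markers checked, the summed level was 48.8 to 75.0 CPM in sgCont LPs and 330 to 346 CPM in sgCbfb LPs of experiment 1. It was 40.2 to 53.5 and 282 to 296 CPM in Phase1 cells, and 55.6 to 60.9 and 530 to 641 CPM in experiment 2. Most of this was 1 gene, Mrc1, the mannose receptor, at means of 221, 210 and 472 CPM with sgCbfb. Fcgr3, an Fc receptor, was also higher with sgCbfb, at means of 82.9, 53.3 and 76.9 CPM against 36.2, 13.9 and 38.0 CPM with sgCont, without overlap. Mpo, a granule enzyme, was at means of 16.7 and 16.8 CPM in the sgCbfb LPs of experiments 1 and 2 against 5.22 and 5.28 CPM, also without overlap. Among the others, Itgam was at means of 8.56 to 26.1 CPM over the 8 groups, Csf1r reached at most 10.1 CPM and Lyz2 4.56 CPM, and Cd14 was at 0 in all 24 libraries. The myeloid sum was above sgCont in the other groups of experiment 2 as well, at 90.8 to 121 CPM with sgCTCF and 75.0 to 92.4 CPM with sgMed12, again without overlap. Summed early T markers were 357 to 389 CPM in Phase1 sgCbfb cells and 1204 to 1508 CPM with sgCont. With sgCbfb in LPs the sums overlapped sgCont, while single markers moved in opposite directions without overlap. Bcl11b was lower, at means of 13.6 and 2.95 CPM in experiments 1 and 2 against 76.3 and 55.1 CPM. Il2ra was higher, at 20.2 and 22.5 CPM against 2.61 and 0.845 CPM. In experiment 2 the early T sum was 131 to 153 CPM with sgCTCF and 103 to 119 CPM with sgMed12. The sgCont libraries lay below both, at 66.2 to 95.98 CPM. Summed B-lineage markers were 166 to 215 CPM with sgCbfb and 297 to 410 CPM with sgCont in experiment 1 LPs. In experiment 2 they were 164 to 218 and 244 to 315 CPM, and in Phase1 cells they overlapped. Summed progenitor markers were higher with sgCbfb in each comparison without overlap, at 1760 to 2229 and 1414 to 1643 CPM in experiment 1 LPs. Stromal markers, for the OP9 layer, summed to 0 to 43.2 CPM over 8 genes in all libraries, with Col3a1 and Postn at 0. The part of such cells in the Med13l, Med12l, Med27 and sgMed12 values was not tested.

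Both moving genes hold other genes in their introns, and these were read after the values of Med13l and Med12l had been seen. Inside Med12l, on the opposite strand, lie Gpr171 and the P2Y receptor genes P2ry14, P2ry13 and P2ry12, of which P2ry12 shares 9 exon bases with it. P2ry12 was at 1.05, 1.18 and 2.19 CPM with sgCont in experiment 2 and at 23.3, 17.7 and 12.1 CPM with sgCbfb. P2ry14, the receptor for UDP-sugars, was at 141, 167 and 152 CPM with sgCont and at 248, 273 and 234 CPM with sgCbfb. Gpr171 went the other way, at 203, 227 and 200 CPM with sgCont and 97.8, 111 and 104 CPM with sgCbfb. All 3 passed in limma (log2 2.90, 0.71 and -1.0 with adjusted p 1.57e-06, 3.85e-05 and 3.38e-08), so the genes of this locus did not move one way. Med12l also shares all of its last 500 exon bases with Igsf10 on the opposite strand, which was listed at 0 in every library.

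Inside introns of Med13l, on the same strand, lie the single-exon models Gm43788 (chr5:118602716-118605132), Gm43275 (chr5:118618294-118619313) and Gm43274 (chr5:118644373-118649372). Their reads cannot be told apart by position from intron reads of Med13l. Gm43788 was at 17.7, 7.68 and 7.79 CPM with sgCont in experiment 2, at 23.8, 39.1 and 28.7 CPM with sgCbfb, at 6.98, 8.35 and 6.93 CPM with sgCTCF and at 49.5, 14.8 and 55.9 CPM with sgMed12. It passed against sgCont with sgCbfb (log2 1.46, limma adjusted p 0.00459) and with sgMed12 (log2 1.67, limma adjusted p 0.00675). Gm43274 also passed in both (log2 1.03 and 1.34, limma adjusted p 0.0338 and 0.0155), and Gm43275 passed with sgMed12 (log2 1.40, limma adjusted p 0.0395). In the second sgMed12 library these genes were at 14.8, 6.10 and 12.2 CPM, within the sgCont range for Gm43788 and Gm43275 and above it for Gm43274. Without that library all 3 passed (log2 2.25, 1.95 and 1.71 for Gm43788, Gm43275 and Gm43274). Without the third sgMed12 library none of the 3 passed (limma adjusted p 0.0745, 0.218 and 0.0943), and without the first Gm43788 alone did (limma adjusted p 0.0359, 0.167 and 0.0855). In experiment 1 none of the 3 passed between sgCbfb and sgCont in LPs, where Gm43788 ranged from 10.3 to 39.0 CPM among the sgCont libraries alone.

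**Figure D5:**
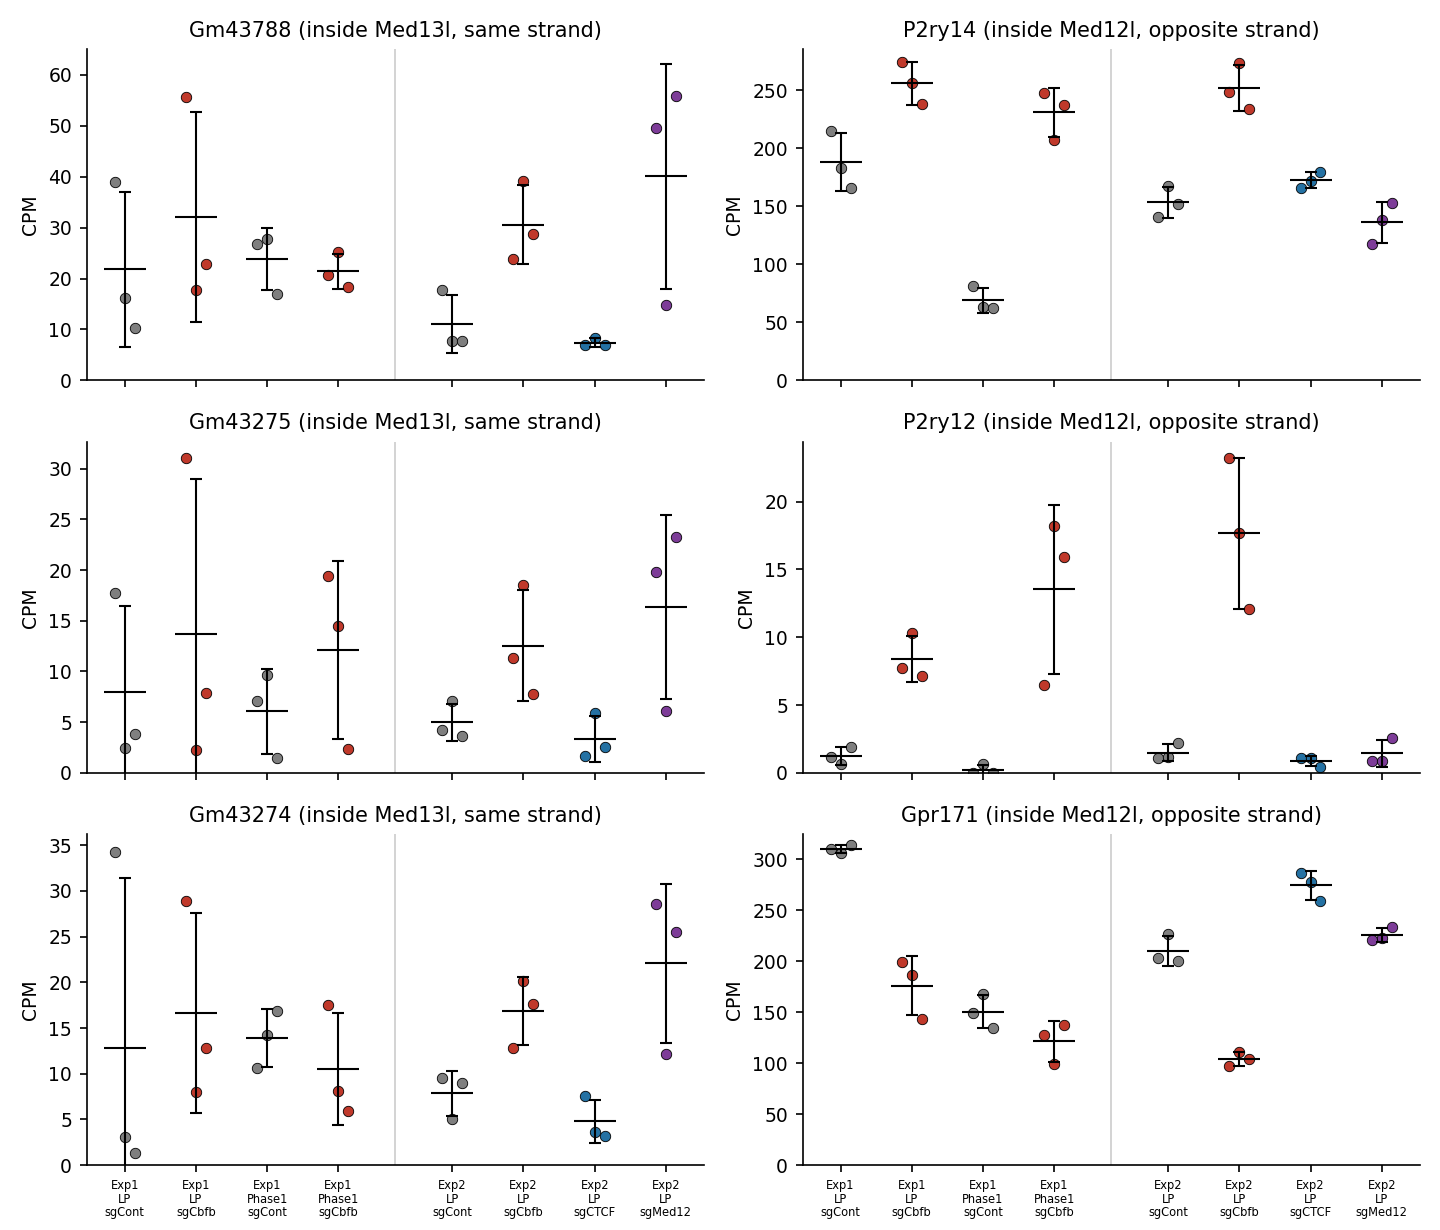
CPM in every library of 3 single-exon gene models inside Med13l introns (left) and of 3 genes inside Med12l (right), with mean and SD (n = 3 a group), whiskers ending at 0 where they would run below it. With sgCbfb in experiment 2, P2ry12 and P2ry14 lie above sgCont and Gpr171 below it, and the second sgMed12 library lies below the other two in all 3 left panels.

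Genes that work with Mediator were read from a list of 38, of which 37 were tested. They were 13 subunits of RNA polymerase II, 7 initiation factors, 8 elongation factors and 6 known substrates of the kinase module. The remaining 4 were Crebbp, Ep300, Nipbl and Fbxw7. With sgCbfb in experiment 1, 1 of 37 passed in LPs and 0 of 37 in Phase1 cells in limma, against 2.85% and 5.97% of all genes. In LPs it was Notch1, whose product is phosphorylated by CDK8 before its turnover, at 263 and 393 CPM as means (log2 0.60, limma adjusted p 0.00822). Between Phase1 and LP sgCont cells, Notch1 was higher (log2 1.04) and Polr2a, the largest polymerase subunit, was lower (log2 -0.48, limma adjusted p 0.0382). With sgCbfb in experiment 2, 3 of 37 passed, against 12.5% of all genes: Notch1 (log2 1.11) was higher and Stat3 (log2 -0.61) and Polr2i (log2 -0.36) were lower.

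Among the comparisons with sgCont, the largest count of list genes passed with sgMed12, where 7 of 37 were lower and 0 higher, against 4.7% of all genes lower. These were 4 of 13 polymerase subunits and 3 of 5 kinase substrates. Stat3, a cytokine-activated factor, was at 159 to 232 CPM with sgCont and 107 to 126 CPM with sgMed12 (log2 -0.71, limma adjusted p 0.00252). Smad3, a factor of TGF-β signals, was at 48.5 to 65.9 and 31.8 to 44.8 CPM (log2 -0.63, limma adjusted p 0.0155). Polr2g was at 59.4 to 77.7 and 34.2 to 55.8 CPM, and Polr2b at 151 to 164 and 92.4 to 143 CPM (log2 -0.67 and -0.51, limma adjusted p 0.0130 and 0.0218). None of these pairs of ranges overlaps. Notch1 was also lower (log2 -0.43, limma adjusted p 0.0321), as were Polr2c and Polr2m. The count depended on the libraries: without the second sgMed12 library 12 were lower and 0 higher, against 13.5% of all genes lower, and without the first or the third only 1 gene, Stat3, was lower, against 1.35% and 1.09% of all genes.

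With sgCTCF, 4 of 37 passed against sgCont, 2 higher and 2 lower, where 10.3% of all genes passed. Smad3 (log2 0.56, limma adjusted p 0.0168) and Aff1, a scaffold of the super elongation complex (log2 0.49, limma adjusted p 0.0373), were higher, Polr2f was lower (log2 -0.36, limma adjusted p 0.0409) and E2f1, a cell-cycle factor, was lower (log2 -0.64, limma adjusted p 0.00770). Smad3 was thus higher with sgCTCF and lower with sgMed12, and the direct difference between these groups passed (log2 -1.20, limma adjusted p 4.97e-06). Notch1 was not among the genes that passed with sgCTCF, and it was lower with sgMed12 than with sgCTCF (log2 -0.54, limma adjusted p 0.00246).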

How the data were processed

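RNA was read with the QuantSeq 3′ mRNA-Seq FWD kit as single reads. Per the labels, the authors trimmed and aligned reads with fastp and STAR to mm10. The counting tool, its strand setting and all versions are not given in the sources used here. The deposited values are named TPM in the files, but they are not divided by length. The deposited values are therefore CPM that the authors made by dividing reads on genes by the library total, since dividing by what 1 read is worth gave whole reads for 100% of values.

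Groups and replicates were taken from the sample titles. The Mediator genes, lists and tests were chosen with earlier results of these data known. From the CPM, log2(value + 1) was fitted with limma 3.58.1 (trend) in R 4.3.3, with all 4 groups of an experiment in 1 fit, for the 13239 and 13177 genes that reached 1 CPM in 3 or more libraries. Fold changes are on that scale and understate the change of low genes. Adjusted p-values are Benjamini-Hochberg values over all genes, two-sided. For a single gene, an exact permutation test of 3 against 3 cannot go below 0.1, so none is given. On simulated data, 28 of 100 genes changed 1.5-fold and 99 of 100 changed 3-fold were recovered for sgCbfb in LPs of experiment 1, and 31 and 100 of 100 for sgMed12. Only genes with a mean over 20 CPM were changed there, and every gene was given the same spread beyond counting error. In sgCont LPs of experiment 2, 9 of 33 members lay under 20 CPM, so these shares do not apply to them. Genes in the text were the kinase module, members past the test, the highest and lowest of each module, the targets, and list genes past the test with a log2 change over 0.5. Other genes of the lists, genes nested in Med13l and Med12l, and members named at an unadjusted p or outside the test were chosen after their values were seen. Gene positions are from GENCODE on GRCm38. Alternatives were other pseudocounts, filters, scaling, samples in the fit, replicate blocks, edgeR 4.0.16 on the recovered reads, the study's 3 thresholds (adjusted p, log2 ratio over 1, mean over 10) and leaving out each library. Guide and protein sequences were not used here. One gene of the kinase substrates is not reported here and was left out of the list and its counts, after the values had been seen and not because of them; it stayed among all genes tested.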

Additional observations from a re-analysis of the deposited data

Results flagged for a closer look

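P2ry14, a gene inside Med12l, differed between stages in its response to sgCbfb: its log2 difference from sgCont was larger in Phase1 cells than in LPs by 1.29 ± 0.21 SE (limma adjusted p 0.00139 for the difference itself). In Phase1 cells P2ry14 was at 81.2, 63.2 and 62.4 CPM with sgCont and at 248, 207 and 237 CPM with sgCbfb. In LPs of experiment 1 it was at 215, 183 and 166 CPM and at 274, 256 and 238 CPM. The same test called no Mediator gene.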

How the results depend on the processing

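Counts of Mediator genes past the test were recomputed under other settings. By the study's 3 thresholds the count fell to 0 with sgCbfb in LPs of experiment 1, between Phase1 and LP cells with sgCont and with sgCbfb, with sgCTCF against sgCont, and with sgMed12 against sgCTCF and against sgCbfb. It was 1 with sgCbfb in Phase1 cells, with sgCbfb in experiment 2 and between sgCTCF and sgCbfb. For sgCbfb in Phase1 cells (2 in limma) it was 0 with a pseudocount of 0.1, with no filter on low values, with median-of-ratios scaling, in edgeR and with only the groups compared in the fit, and 1 with mitochondrial genes left out of the total, a setting chosen after seeing the data. For sgCTCF against sgCont (1 in limma) it was 0 with no filter, 2 with median-of-ratios scaling, in edgeR and without mitochondrial genes, and 3 with only the groups compared. For sgMed12 against sgCTCF (2) it was 1 with no filter and with only the groups compared, and for sgMed12 against sgCbfb (5) it was 2 with only the groups compared. The cause was not tested.

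Leaving out each library in turn gave 0 to 2 genes for sgCbfb in Phase1 cells, with 0 on leaving out any Phase1 sgCbfb library or LP sgCbfb replicate 2 or 3, 2 without replicate 3 of either sgCont group, and 1 otherwise. It gave 1 to 2 for Phase1 against LP with sgCont (2 without the first or second Phase1 sgCont library), and 0 to 3 for sgCTCF against sgCont (0 without any library of either group, 2 without the first and 3 without the second sgMed12 library). It gave 0 to 5 for sgMed12 against sgCont (5 without the second sgMed12 library), 3 to 7 for sgCTCF against sgCbfb (3 without the first sgCTCF library), 0 to 7 for sgMed12 against sgCTCF (7 without the second sgMed12 library, 0 without sgMed12 replicate 1 or 3 or sgCTCF replicate 1, and 1 without sgCTCF replicate 2 or 3) and 3 to 7 for sgMed12 against sgCbfb (3 without sgCbfb replicate 1 or 2 or sgMed12 replicate 3). The counts for sgCbfb in LPs of both experiments, for Phase1 against LP with sgCbfb and for the difference between stages did not move. Med13l passed in 21 of 21 alternatives with sgCbfb in LPs of experiment 1 (log2 0.57 to 0.74, limma or edgeR adjusted p 2.15e-06 to 0.0177) and of experiment 2, and between Phase1 and LP cells, and Med12l did in experiment 2.

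The replicate numbers did not pair the libraries: same-numbered libraries correlated at -0.0106 to 0.102 in experiment 1 and -0.0635 to 0.111 in experiment 2, over 0.1 in 1 and 2 of 18 pairs. With the replicate number as a block, the count for Phase1 against LP with sgCont was 2 rather than 1, and no other count moved by over 1.5 times. Summed module levels moved by less than the spread between replicates in each alternative. At the depth of these libraries, genes near the low end such as Med12 rest on few reads.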
